A study of Mus musculus with 4 samples.

Results

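Noncoding genes that were expressed in Hepa1-6 cells, a mouse hepatoma line, were described in cells depleted of the chromatin remodeler Chd1. A gene was taken when all its RefSeq transcripts carried noncoding accessions and its mean over the 4 libraries was at least 1 RPKM (reads scaled to transcript length and library size). Members were thus chosen by their level over all 4 libraries, not by a difference between the groups. A gene near the threshold can still have passed only through the group where it was higher. H19, Gas5, 1110038B12Rik and the Snhg genes were left out. The rule gave 215 of the 23521 genes in the table: 209 long noncoding genes, 5 small nucleolar RNA (snoRNA) genes and Rmrp, the RNA of the RNase MRP enzyme. It took no microRNA gene.

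Cells were transduced with a lentivirus that carried an shRNA against Chd1 (Chd1KD, 2 libraries) or a scrambled shRNA (Control, 2 libraries), and every culture was held in 4 μg/ml puromycin over 3 weeks. Both groups are the Hepa1-6 line with no other stated alteration; the labels give the Control cells as wild type. Poly(A) RNA was enriched from 10 μg of total RNA. The labels name no shRNA sequence and do not tell if replicates were transduced separately. The p-values therefore describe library-to-library spread, part or all of which could be technical.

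Long noncoding RNAs are transcripts without an evident protein product. Some, such as Xist and Neat1, act as RNA scaffolds on chromatin or in nuclear bodies, and others are host transcripts from which snoRNAs or microRNAs are cut. Transcribed pseudogenes are copies of coding genes that have usually lost the reading frame. Most snoRNAs are trimmed from introns and have no poly(A) tail, and mature microRNAs are far shorter than the fragments of an mRNA library.

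Summed RPKM lay between 459381 and 484490 in the 4 libraries, and the sequencing depth is unknown. Chd1 mRNA was at 10.4 and 11.3 RPKM in the Chd1KD libraries, against 21.4 and 22.5 RPKM in the Control libraries, and fell by 0.96 on the log2(RPKM + 1) scale (SE 0.07, limma, Benjamini-Hochberg adjusted p = 0.0125). Of 6 hepatocyte and hepatoma markers, 4 reached a mean of 1 RPKM, and Ttr was listed at 0 in all 4 libraries. Their summed level was 196 and 227 RPKM in the Chd1KD libraries, against 173 and 238 RPKM in the Control libraries. No marker of macrophages, endothelium, fibroblasts or lymphocytes reached 1 RPKM. In bulk RNA, fewer cells with a transcript and less of it per cell cannot be told apart.

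The level of the long noncoding genes was uneven. A total of 64 had a mean of 1 to 2 RPKM, 89 of 2 to 10 RPKM, 49 of 10 to 100 RPKM and 7 above that. The median was 3.14 RPKM, against 12.9 RPKM over all 10209 genes at a mean of 1 RPKM or more. The 4 most abundant were all transcribed pseudogenes (Gm12191, Ubb-ps, Gm12070 and Gm6793) and held 69.2% of the RPKM summed over the 209 genes. By RefSeq biotype, 151 were long noncoding RNAs, 49 were transcribed pseudogenes, 1 was a pseudogene, 6 are now listed as protein coding and 2 had no entry. The members nearest the threshold from above were 2310008N11Rik at a mean of 1.02 RPKM, Rab10os at 1.02 RPKM and A930013F10Rik at 1.02 RPKM. The nearest from below were 2310034G01Rik at 0.995 RPKM, Gm19589 at 0.982 RPKM and Dbhos at 0.977 RPKM.

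No noncoding member passed the test for a difference between Chd1KD and Control. In limma on log2(RPKM + 1), 0 of 209 long noncoding genes and 0 of 6 small RNA genes had an adjusted p under 0.05, where 47 of all 10209 genes did (0.46%, with 0.274% higher and 0.186% lower in Chd1KD). With any 1 library left out, 0 to 6 long noncoding genes were called. At an unadjusted p under 0.05 there were 32 long noncoding genes (15.3%), against 18.5% of all genes tested. Of the 32, 19 were higher and 13 lower in Chd1KD, against 7.24% and 11.3% of all genes. The Chd1KD and Control libraries did not overlap for 96 of the 209 genes (45.9%), 58 higher and 38 lower, against 51.8% of all genes, 21.3% higher and 30.5% lower.

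The median log2 fold change of the long noncoding genes was 0.04, against -0.02 over all genes tested. It was positive for 121 of 209 (57.9%), against 43.5% of all genes. The median absolute log2 difference between 2 libraries was 0.14 within Chd1KD and 0.15 within Control for these genes, and 0.13 to 0.17 for the 4 pairs that crossed groups. The same measure over all genes was 0.07 within Chd1KD and 0.09 within Control, and 0.097 to 0.119 for the pairs that crossed groups. Among the long noncoding genes at 10 RPKM or more, the median log2 fold change was 0.01 over 56 genes, and among those of 1 to 2 RPKM it was 0.05 over 64 genes.

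**Figure D1:**
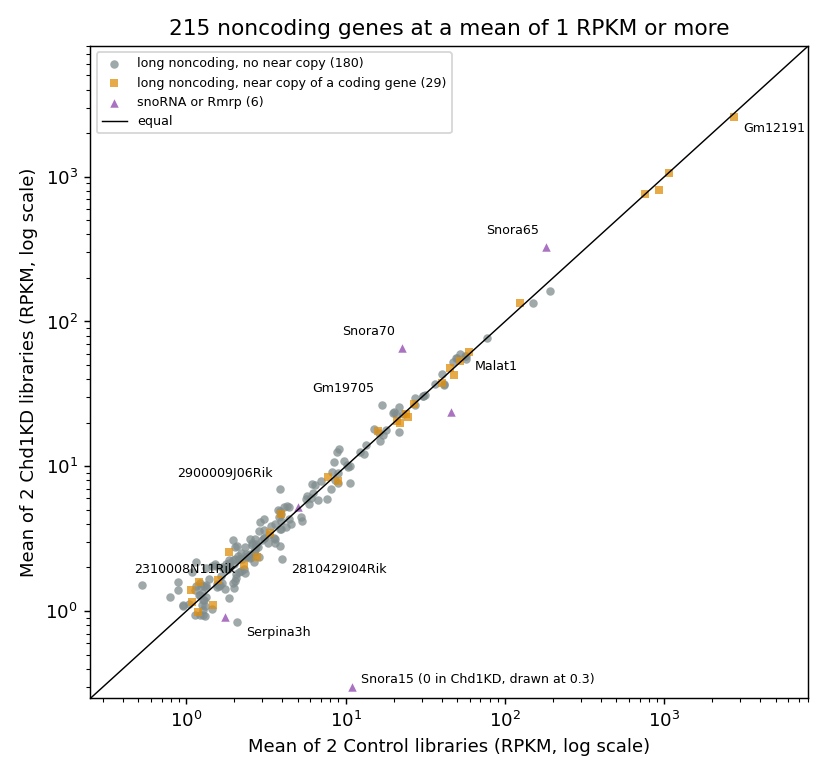
Mean RPKM of each of the 215 noncoding genes in 2 Chd1KD libraries (vertical axis, log scale) against 2 Control libraries (horizontal axis, log scale), with the line of equal values. Most genes lie along the line. Among the triangles (snoRNA genes and Rmrp), Snora70 and Snora15 lie far from it and Snora81 almost on it, and near copies of coding genes (squares) make up the top end.

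The long noncoding genes that came closest to the threshold were 2810429I04Rik and 2900009J06Rik, for which no function is given here. 2810429I04Rik lies on the plus strand of chromosome 13 (3478232 to 3501393, GRCm38.p6) and overlaps no coding gene. It was at 2.24 and 2.37 RPKM in Chd1KD, against 3.84 and 4.11 RPKM in Control. Both Chd1KD libraries were below both Control libraries, by more than the gap within either group (log2 fold change -0.59, SE 0.09, limma adjusted p = 0.0544).

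2900009J06Rik was at 7.71 and 6.13 RPKM in Chd1KD, against 3.83 and 3.88 RPKM in Control, so the groups did not overlap (log2 fold change 0.70, SE 0.11, limma adjusted p = 0.0592). It lies on the minus strand of chromosome 1 (127753617 to 127774054) and shares exonic sequence on the other strand with Acmsd, an enzyme of tryptophan breakdown. Acmsd was at 0.543 and 0.596 RPKM in Chd1KD, against 0.254 and 0.488 RPKM in Control. The strand setting of the authors' counting is not given in the sources used here, so reads of the pair may not be separable. Its start lies 110 bases head to head from Ccnt2, the cyclin T2 subunit of the elongation factor P-TEFb. Ccnt2 was at 20.4 and 20.7 RPKM in Chd1KD, against 20.5 and 23.1 RPKM in Control (log2 fold change -0.08, SE 0.07, limma adjusted p = 0.576), and its groups overlapped.

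The shared start region is printed because a pair of genes starts in it and the groups overlapped for Ccnt2 and not for 2900009J06Rik. The RefSeq window for 2900009J06Rik is chr1:127774005-127774304 on the minus strand of GRCm38.p6, and runs from upstream of the start to shortly past it. Capitals mark the GC box letters GGGCGG and the CCAAT box letters CCAAT, searched on both strands; one of each overlaps the other by a base.
2900009J06Rik: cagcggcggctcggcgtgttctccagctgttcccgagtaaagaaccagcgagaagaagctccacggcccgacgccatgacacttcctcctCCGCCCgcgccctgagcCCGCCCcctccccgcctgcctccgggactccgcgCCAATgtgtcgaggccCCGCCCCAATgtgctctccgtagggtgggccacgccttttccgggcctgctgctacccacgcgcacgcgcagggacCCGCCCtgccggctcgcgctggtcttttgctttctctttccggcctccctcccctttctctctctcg
The window held 4 GC box matches and 2 CCAAT box matches, and no match to TATAAA. Of 27025 RefSeq windows, 1 per gene, 35.9% held GGGCGG, 37.9% held CCAAT and 14.2% held TATAAA. A match gives letters in this window and does not show a bound factor. Among the 131 long noncoding members with a window the shares were 56.5% for GGGCGG, 48.1% for CCAAT and 7.63% for TATAAA. These members were all at a mean of 1 RPKM or more, while the 27025 windows were not filtered by expression. The 2 sets of shares are therefore not a like comparison.

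Beside 2900009J06Rik, 7 more genes made up the 8 largest differences upward among those with an unadjusted p under 0.05 and no overlap between the groups. Gm19705, on chromosome 1, was at 28.9 and 24.3 RPKM in Chd1KD, against 19.1 and 14.6 RPKM in Control (log2 fold change 0.64, SE 0.13, limma adjusted p = 0.102). 2310008N11Rik, on chromosome 8, was at 1.87 and 1.14 RPKM in Chd1KD, against 0.594 and 0.456 RPKM in Control (log2 fold change 0.70, SE 0.16, limma adjusted p = 0.111). Gm4013, on chromosome 18, was at 2.38 and 2.003 RPKM in Chd1KD, against 0.874 and 1.42 RPKM in Control. The groups of the 8 genes do not overlap because of how they were chosen, so this is no further result. 2310008N11Rik was below 1 RPKM in both Control libraries and reached the threshold only through its Chd1KD libraries.

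E030003E18Rik lies within the span of Aldh1a1, the retinaldehyde dehydrogenase, on the same strand. It was at 3.35 and 2.83 RPKM in Chd1KD, against 2.36 and 1.57 RPKM in Control, and its groups did not overlap. Aldh1a1 itself was at 283 and 292 RPKM in Chd1KD, against 249 and 255 RPKM in Control. The RNA shares sequence with Aldh1a1, so its counts are uncertain. Mirt1 (myocardial infarction associated transcript 1) was at 4.56 and 3.73 RPKM in Chd1KD, against 3.09 and 2.71 RPKM in Control. Gm44505 overlaps Zfp91 and Cntf on the same strand, and 2378 of its 3221 transcript bases aligned to Zfp91, so its counts are uncertain too. It was at 3.95 and 4.69 RPKM in Chd1KD, against 3.46 and 2.68 RPKM in Control, while Zfp91 was at 28.0 and 29.8 RPKM in Chd1KD, against 28.6 and 29.7 RPKM in Control. 4921531C22Rik starts 207 bases from Taf4 and was at 2.03 and 1.92 RPKM in Chd1KD, against 1.27 and 1.39 RPKM in Control, while Taf4 was at 13.4 and 12.9 RPKM in Chd1KD, against 13.8 and 14.8 RPKM in Control.

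Among genes of lower level in Chd1KD, Serpina3h had the largest difference. This pseudogene of the Serpina3 family of protease inhibitors was at 1.17 and 0.523 RPKM in Chd1KD, against 2.85 and 1.295 RPKM in Control (log2 fold change -0.71, SE 0.27, limma adjusted p = 0.232). Its libraries within a group differed by about as much as the groups did, and reads of family members may be shared. The mean of its Chd1KD libraries was below 1 RPKM, so Serpina3h reached the threshold only through its Control libraries. Gm38431 overlaps Fdx2 and Raver1 on the same strand, with exonic overlap for Raver1. Of its 2988 transcript bases, 2327 aligned to Raver1, so its counts are uncertain. Gm38431 was at 8.15 and 7.21 RPKM in Chd1KD, against 9.71 and 11.5 RPKM in Control. Raver1, a splicing coregulator, was at 33.9 and 31.4 RPKM in Chd1KD, against 36.3 and 33.1 RPKM in Control, and its groups overlapped.

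4930556M19Rik, opposite Rai14, was at 1.11 and 1.36 RPKM in Chd1KD, against 1.87 and 1.85 RPKM in Control. 1600020E01Rik was at 3.04 and 2.64 RPKM in Chd1KD, against 4.29 and 3.46 RPKM in Control. 5730408K05Rik, which overlaps the snoRNA gene Snora57 and the microRNA gene Mir5136, was at 16.1 and 18.3 RPKM in Chd1KD, against 22.2 and 21.1 RPKM in Control. 4930526I15Rik was at 6.28 and 5.62 RPKM in Chd1KD, against 7.74 and 7.50 RPKM in Control. 9530082P21Rik overlaps exons of Flywch1 on the other strand and was at 4.05 and 4.34 RPKM in Chd1KD, against 5.86 and 4.81 RPKM in Control, while Flywch1 was at 15.5 and 16.1 RPKM in Chd1KD, against 20.4 and 18.1 RPKM in Control. The adjusted p of these 8 genes of lower level ran from 0.0544 to 0.232 (limma).

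**Figure D2:**
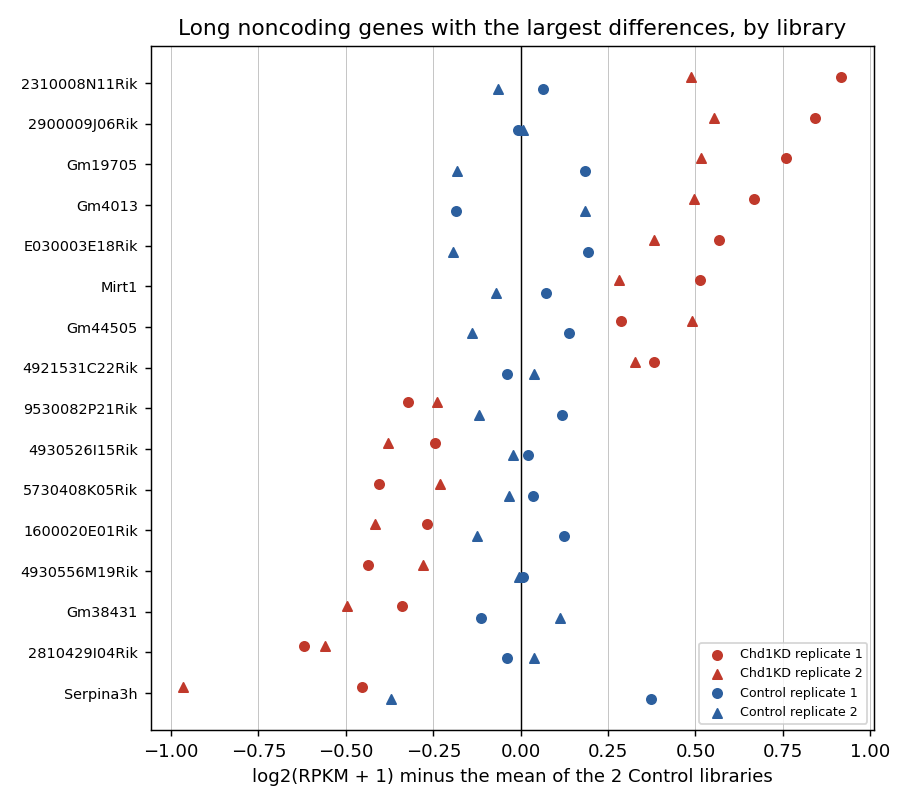
Values of the 8 long noncoding genes with the largest higher and the 8 with the largest lower level in Chd1KD, as log2(RPKM + 1) minus the mean of the 2 Control libraries. Red points are Chd1KD libraries and blue points Control libraries; the groups do not overlap for any of the 16, which is how they were chosen, and no gene passed an adjusted p of 0.05.

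None of the well-studied long noncoding RNAs passed the test. The largest log2 fold change among them was that of Mirt1, at 0.40, whose levels are given above. Norad, which binds Pumilio proteins, was at 77.1 and 77.3 RPKM in Chd1KD, against 75.1 and 78.2 RPKM in Control. Xist, which coats and silences an X chromosome, was at 52.4 and 58.3 RPKM in Chd1KD, against 52.5 and 62.0 RPKM in Control. Of its neighbours in the X inactivation centre, Rlim, a coding gene, was at 18.7 and 20.8 RPKM in Chd1KD, against 18.97 and 20.1 RPKM in Control. The noncoding neighbours were below 1 RPKM and were not tested. Jpx was at 0.392 and 0.431 RPKM in Chd1KD, against 0.637 and 0.538 RPKM in Control, and its groups did not overlap. Ftx was at 0.511 and 0.343 RPKM in Chd1KD, against 0.551 and 0.437 RPKM in Control, and Tsix, the transcript opposite Xist, was listed at 0 in 3 of 4 libraries.

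Of the RNAs of nuclear bodies, Malat1, found in nuclear speckles, was at 72.1 and 43.5 RPKM in Chd1KD, against 57.6 and 56.5 RPKM in Control. Neat1, the scaffold of paraspeckles, was at 20.2 and 12.9 RPKM in Chd1KD, against 19.5 and 14.98 RPKM in Control. The 2 Chd1KD libraries differed more than the groups for both RNAs, with replicate 1 the higher in each. Tug1 was at 29.5 and 29.6 RPKM in Chd1KD, against 26.7 and 27.5 RPKM in Control. Firre, an X-linked nuclear RNA, was at 3.80 and 3.81 RPKM in Chd1KD, against 4.23 and 4.25 RPKM in Control. The groups of Tug1 and Firre did not overlap, and their limma adjusted p was 0.318 and 0.427. In this list of 10, 8 were in the table and 5 reached 1 RPKM, and 0 passed the test.

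Oip5os1, known as Cyrano and a regulator of the microRNA miR-7, was at 22.9 and 24.4 RPKM in Chd1KD, against 18.99 and 21.2 RPKM in Control (log2 fold change 0.23, SE 0.07, limma adjusted p = 0.188). Morrbid, which represses the neighbouring apoptosis gene Bcl2l11 in myeloid cells, was at 25.1 and 21.8 RPKM in Chd1KD, against 21.3 and 18.5 RPKM in Control (log2 fold change 0.23, SE 0.09, limma adjusted p = 0.266). Bcl2l11 was at 7.90 and 7.47 RPKM in Chd1KD, against 6.17 and 6.43 RPKM in Control. Pvt1, beside the Myc gene, was at 9.87 and 9.96 RPKM in Chd1KD, against 10.8 and 9.96 RPKM in Control, and Epb41l4aos was at 26.7 and 35.6 RPKM in Chd1KD, against 33.9 and 29.0 RPKM in Control. Of 19 entries in this growth-linked list, 11 were in the table and 4 reached 1 RPKM, of which 2 (Oip5os1 and Morrbid) had an unadjusted p under 0.05, both higher, against 7.24% of all genes.

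Airn, the antisense RNA that silences the imprinted Igf2r gene on the paternal chromosome, was at 2.35 and 2.70 RPKM in Chd1KD, against 1.99 and 2.45 RPKM in Control, and Igf2r was at 1.47 and 1.18 RPKM in Chd1KD, against 0.932 and 0.949 RPKM in Control. Of 17 imprinted entries, 12 were in the table, 2 reached 1 RPKM, and 6 were listed at 0 in all 4 libraries, among them Meg3, Rian and Mirg. Airn was also the only entry of 10 liver-list RNAs in the table to reach 1 RPKM.

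Lockd and Chaserr were chosen after their values were seen, because each lies beside a gene tied to growth or to the CHD family. Lockd, downstream of the cell cycle inhibitor gene Cdkn1b, was at 37.2 and 35.4 RPKM in Chd1KD, against 42.6 and 40.3 RPKM in Control (log2 fold change -0.19, SE 0.06, limma adjusted p = 0.190). Cdkn1b was at 17.8 and 17.2 RPKM in Chd1KD, against 20.8 and 19.6 RPKM in Control. Chaserr, which restrains the neighbouring remodeler gene Chd2, was at 1.76 and 1.71 RPKM in Chd1KD, against 1.71 and 1.58 RPKM in Control. Chd2 was at 10.9 and 10.6 RPKM in Chd1KD, against 8.13 and 8.88 RPKM in Control (log2 fold change 0.31, SE 0.07, limma adjusted p = 0.113).

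**Figure D3:**
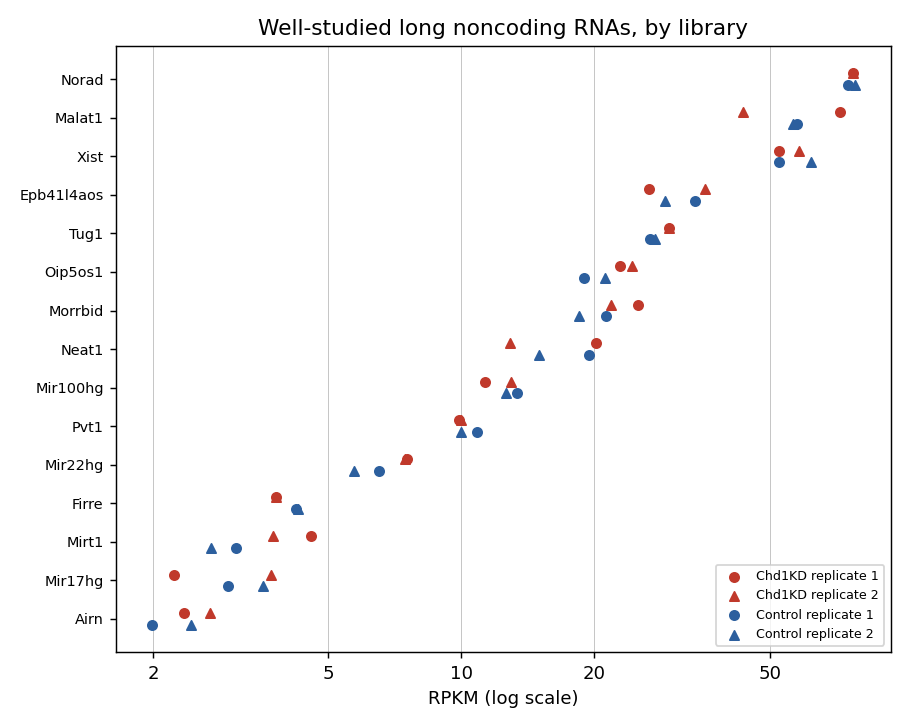
RPKM (log scale) of 15 well-studied long noncoding RNAs in each library, with Chd1KD in red and Control in blue. The levels run from 1.99 RPKM for Airn in Control replicate 1 to 78.2 RPKM for Norad in Control replicate 2. For several of these RNAs, among them Malat1, Neat1, Mir17hg, Epb41l4aos and Xist, the 2 Chd1KD libraries lie farther apart than the group means.

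All 637 named microRNA genes in the table were listed at 0 in all 4 libraries, as were 108 of 118 snoRNA genes. A listed 0 is not proof that a gene is off. A selection of mature microRNAs from Mir100hg, Mir22hg and Mir17hg is shown, without that of Mirlet7a-2. Capitals mark the seed, bases 2 to 8, since it sets which targets they pair with. They are RefSeq entries of GRCm38.p6.
mmu-miR-100-5p: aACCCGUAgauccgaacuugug
mmu-miR-125b-5p: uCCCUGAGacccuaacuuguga
mmu-miR-22-3p: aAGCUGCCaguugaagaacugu
mmu-miR-17-5p: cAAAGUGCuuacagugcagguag
mmu-miR-20a-5p: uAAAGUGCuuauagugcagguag
mmu-miR-18a-5p: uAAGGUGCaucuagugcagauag
mmu-miR-19a-3p: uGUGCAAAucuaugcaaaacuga
mmu-miR-19b-3p: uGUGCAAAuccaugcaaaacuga
mmu-miR-92a-3p: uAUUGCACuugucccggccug
The pair miR-17-5p and miR-20a-5p share a seed, and so do miR-19a-3p and miR-19b-3p. These 6 of the miR-17 cluster lie on chromosome 14, and the RefSeq span of Mir17hg, their host, holds only the hairpin of Mir92-1 whole and starts at the very end of that of Mir19b-1. Mir17hg was at 2.24 and 3.71 RPKM in Chd1KD, against 2.96 and 3.55 RPKM in Control. Mir100hg, which holds Mir100, Mirlet7a-2 and Mir125b-1, was at 11.3 and 12.96 RPKM in Chd1KD, against 13.4 and 12.6 RPKM in Control. Both overlapped between groups.

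Mir22hg, the host of Mir22 on chromosome 11, was at 7.54 and 7.45 RPKM in Chd1KD, against 6.51 and 5.70 RPKM in Control (log2 fold change 0.26, SE 0.08, unadjusted p = 0.0169, limma adjusted p = 0.178). Both Chd1KD libraries were above both Control libraries. The microRNA-host list held 16 entries, of which 11 were in the table, 4 reached 1 RPKM and 4 were listed at 0 in all 4 libraries. The 4 that reached 1 RPKM include Mirt1, whose span holds no microRNA gene, and 2 of them had an unadjusted p under 0.05, both higher, against 7.24% of all genes. In all, 6 of the long noncoding members overlap a microRNA gene and 8 overlap a snoRNA gene. The most abundant of these, 2410006H16Rik, holds Snord49a, Snord49b and Snord65. It was at 169 and 154 RPKM in Chd1KD, against 216 and 168 RPKM in Control, and its groups overlapped. Ptprtos, opposite Ptprt, was at 134 and 137 RPKM in Chd1KD, against 146 and 152 RPKM in Control (log2 fold change -0.14, SE 0.06, limma adjusted p = 0.254).

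Many of the most abundant members are close in sequence to a coding gene, and how many reads map to both was not tested. In 29 of the 200 long noncoding genes with a transcript in GENCODE M21, at least 80% of that transcript aligned at 90% identity or more to a coding gene elsewhere in the genome. These near copies, 26 of them transcribed pseudogenes, held 76.2% of the summed RPKM of the long noncoding genes, and 10 aligned at 99% identity or more. Likeness was measured on the GENCODE transcript, which for some genes was matched by name only. The RPKM values belong to RefSeq transcripts, which can be longer, so the share of the measured RNA that is a copy can be lower. For Gm12070 on chromosome 11, the alignment to Gapdh, the glycolytic enzyme gene on chromosome 6, had 1 difference in 1002 bases. The RefSeq gene of Gm12070 spans 2753 bases, and the part outside the alignment was not compared. A stretch is printed in both genes with the differing base in capitals. It is shown because a short read from the aligned part that misses this base matches both.
Gm12070: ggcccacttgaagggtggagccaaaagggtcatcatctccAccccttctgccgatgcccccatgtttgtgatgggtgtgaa
Gapdh: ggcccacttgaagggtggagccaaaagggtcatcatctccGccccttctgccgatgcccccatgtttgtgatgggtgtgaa
The change in Gm12070 is G453A, counted from base 1 of the coding gene's GENCODE transcript.

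Levels of such copies can depend on how reads were shared between the genes. Gm12191, a near copy of the ribosomal protein gene Rpl30 and the most abundant member, was at 2621 and 2529 RPKM in Chd1KD, against 2798 and 2674 RPKM in Control, and Rpl30 was at 338 and 303 RPKM in Chd1KD, against 305 and 281 RPKM in Control. The copy was thus listed above the gene it copies, as were Ubb-ps, Gm6793, Gm13363, Gm1943 and Gm7367. The other 23 near copies were below. Gm12070 was at 819 and 797 RPKM in Chd1KD, against 911 and 929 RPKM in Control (log2 fold change -0.19, SE 0.06, limma adjusted p = 0.178), and Gapdh was at 1106 and 1037 RPKM in Chd1KD, against 1238 and 1219 RPKM in Control (log2 fold change -0.20, SE 0.06, limma adjusted p = 0.187).

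The log2 fold change of copy and coding gene had the same sign in 25 of 29 pairs, the median absolute difference between copy and gene was 0.08, and the correlation across the 29 pairs was r = 0.70. The points share libraries and may share reads, and some coding genes appear in 2 pairs. The 4 pairs of opposite sign were Gm12191, Gm6654, Gm5801 and Pisd-ps1. Ubb-ps, a copy of the polyubiquitin gene Ubb, was at 1112 and 1003 RPKM in Chd1KD, against 1073 and 1053 RPKM in Control. Gm6793, a copy of the splicing factor gene Hnrnpa3, was at 771 and 742 RPKM in Chd1KD, against 769 and 737 RPKM in Control. Both overlapped between groups. Gm13363 (Ptp4a1), Gm10012 (Cox7c) and Ndufs5-ps, also among the 12 most abundant long noncoding genes, overlapped between groups too.

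**Figure D4:**
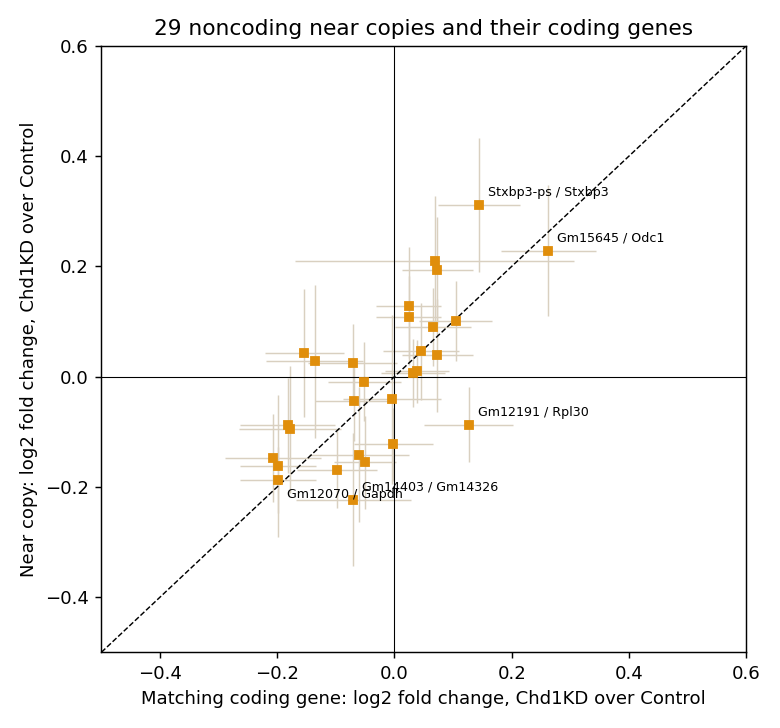
Log2 fold change (Chd1KD over Control, on log2(RPKM + 1)) of each of 29 near copies (vertical axis) against that of the coding gene it aligns to (horizontal axis), with standard errors from limma as bars and the line of equal values dashed. The median absolute difference between copy and gene was 0.08, and the median absolute log2 fold change of the copies was 0.10. In 4 pairs, among them Gm12191 and Rpl30, copy and gene lie on opposite sides of 0.

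Of the long noncoding genes with a known strand, 68 overlap a coding gene on the other strand and 46 start within 1 kb head to head of one. Some genes, among them 2900009J06Rik, are in both sets. In the first set 10 of 68 had an unadjusted p under 0.05, 4 higher and 6 lower. In the second set 7 of 46 did, 5 higher and 2 lower. Over all genes the share was 18.5%, with 7.24% higher and 11.3% lower. The fold change had the sign of the tested partner in 28 of 56 overlapping pairs and in 23 of 43 head-to-head pairs. In the 43 head-to-head pairs 2 partners passed the test, Ccnyl1 and Fam120a, and in the 56 overlapping pairs 0 did, against 0.46% of all genes. Ccnyl1, a cyclin-Y relative, rose to 16.3 and 16.3 RPKM in Chd1KD, against 11.1 and 11.1 RPKM in Control (log2 fold change 0.52, SE 0.06, limma adjusted p = 0.037). Its neighbour 2810408I11Rik was at 9.72 and 8.60 RPKM in Chd1KD, against 8.83 and 7.53 RPKM in Control. Fam120a rose to 126 and 125 RPKM in Chd1KD, against 93.9 and 97.1 RPKM in Control (log2 fold change 0.39, SE 0.05, limma adjusted p = 0.0492), and Fam120aos was at 6.15 and 4.31 RPKM in Chd1KD, against 4.52 and 4.31 RPKM in Control. Both noncoding neighbours overlapped between groups.

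The 5 snoRNA genes and Rmrp varied widely between libraries of 1 group. The H/ACA snoRNAs Snora65 and Snora70 guide pseudouridylation of RNA, and carry an ACA box close to the end, in capitals. They are printed as the most abundant snoRNA genes measured. The sequences are from GENCODE M21.
Snora65: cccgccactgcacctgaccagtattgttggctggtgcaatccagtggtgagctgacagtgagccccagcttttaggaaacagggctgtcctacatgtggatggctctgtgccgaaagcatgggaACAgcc
Snora70: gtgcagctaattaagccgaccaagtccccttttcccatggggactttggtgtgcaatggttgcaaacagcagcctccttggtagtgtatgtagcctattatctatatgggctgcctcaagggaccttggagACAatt
Snora70 lies within Rpl10 on chromosome X (74272492 to 74272620). It was at 64.0 and 67.1 RPKM in Chd1KD, against 6.71 and 38.5 RPKM in Control (log2 fold change 1.93, SE 0.64, unadjusted p = 0.0210, limma adjusted p = 0.192). The Control libraries differed more from each other than the Chd1KD libraries did. Snora65, within Rpl12 on chromosome 2, was at 189 and 469 RPKM in Chd1KD, against 168 and 194 RPKM in Control, and the groups overlapped. The hosts as listed were steadier. Rpl10 was at 1401 and 1439 RPKM in Chd1KD, against 1566 and 1503 RPKM in Control. Rpl12 was at 2691 and 2792 RPKM in Chd1KD, against 3042 and 2979 RPKM in Control. Snora70 and Snora65 overlap annotated exons of these hosts on the same strand, and Snora15 and Snora81, described below, overlap exons of theirs. Reads of host and snoRNA may therefore not be separable, which was not tested.

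Snord22, a C/D box snoRNA in the Snhg1 host gene, was at 8.32 and 38.9 RPKM in Chd1KD, and at 92.1 RPKM in Control replicate 1 and listed at 0 in Control replicate 2. Its mean was lower in Chd1KD while its log2 fold change was 0.999 (SE 1.87), so the direction depends on the scale. Snora15, within Cct6a, was listed at 0 in both Chd1KD libraries and in Control replicate 2 and was at 21.998 RPKM in Control replicate 1. Snora81, within Eif4a2, was at 9.07 and 1.32 RPKM in Chd1KD, against 5.77 and 4.21 RPKM in Control. Rmrp was at 1.64 and 0.196 RPKM in Chd1KD, and was listed at 0 in Control replicate 1 and at 3.51 RPKM in Control replicate 2. The groups overlapped for all 6 except Snora70.

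**Figure D5:**
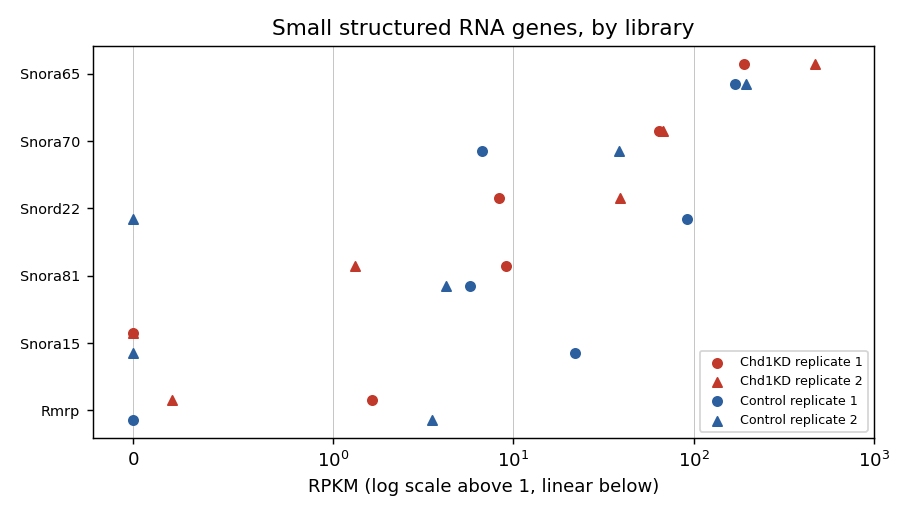
RPKM of the 5 snoRNA genes and Rmrp in each library (log scale above 1 RPKM, linear below), with Chd1KD in red and Control in blue. The groups overlap for every gene except Snora70, whose 2 Control libraries are themselves far apart.

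No gene passed the test in the 5 lists of proteins that process or bind these RNAs. Of 12 paraspeckle and nuclear RNA proteins, 0 passed the test and 4 had an unadjusted p under 0.05, all lower, against 11.3% of all genes. Of 26 tested genes of the nuclear exosome and RNA decay, 4 did, all lower, a share near that of all genes. Rbm14, a paraspeckle protein, was at 33.5 and 32.9 RPKM in Chd1KD, against 38.2 and 38.5 RPKM in Control (log2 fold change -0.20, SE 0.06, limma adjusted p = 0.146). Srsf2, a splicing factor of nuclear speckles, was at 167 and 162 RPKM in Chd1KD, against 198 and 184 RPKM in Control. Exosc7, an exosome subunit, was at 32.4 and 31.3 RPKM in Chd1KD, against 39.3 and 35.8 RPKM in Control.

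The list medians were -0.09 for the 12 paraspeckle proteins and -0.06 for the 26 exosome and decay genes, against -0.02 over all genes. Among 13 snoRNP proteins 2 had an unadjusted p under 0.05, both lower, with a median of -0.06; this share and those of the next lists are near the 11.3% of all genes. Coil, the marker protein of Cajal bodies, was at 5.32 and 5.28 RPKM in Chd1KD, against 6.87 and 6.78 RPKM in Control (log2 fold change -0.31, SE 0.07, limma adjusted p = 0.107). Among 16 proteins of 7SK, RNase P and RNase MRP, 2 had an unadjusted p under 0.05, both lower, and the median was -0.08. Among 13 tested factors of microRNA processing 1 did, Ago2, the slicing Argonaute, at 17.2 and 19.7 RPKM in Chd1KD, against 20.8 and 23.6 RPKM in Control.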

How the data were processed

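Per the file headers, the authors deposited RPKM values per RefSeq transcript (30582 rows). Tools in the submitters' processing notes are Cufflinks 1.3.0 and TopHat 1.4.1, with build mm10. Release, strand setting and filters of the annotation: not given in the sources used here. RPKM carries no read counts, so no count model, counting interval or detection limit applies. Transcripts were named through RefSeq GRCm38.p6 (30003 rows) and GENCODE M21 (180 rows), and 399 rows stayed unnamed (0.304% of summed RPKM). RPKM was summed per gene. The 10209 genes at a mean of 1 RPKM or more were fitted on log2(RPKM + 1) in limma 3.58.1 (R 4.3.3) with a trended variance prior and Benjamini-Hochberg adjustment over all of them. Fold changes are on that scale, which understates low genes. The script was tested on simulated data. Near copies came from BLAST 2.17.0.

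Named long noncoding genes were the 12 most abundant, the 8 largest differences in each direction among those with an unadjusted p under 0.05 and no overlap, and the listed RNAs. The small RNA genes and the 3 genes on each side of the 1 RPKM threshold were added, with up to 3 genes per protein list. Members and lists were chosen with earlier results of these data known. A total of 32 unnamed noncoding accessions at 1 RPKM or more were not taken as members. They were among the 10209 genes fitted. Of these 32, 2 passed the test, against 0.46% of all genes, and 7 had an unadjusted p under 0.05, against 18.5%. Their levels are not described here. Alternatives covered the pseudocount, filter, scaling, variance model, transcript choice, replicate block and each library left out.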

Additional observations from a re-analysis of the deposited data

How the results depend on the processing

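The count of all genes called (47) was 0 with no filter on low values, 71 at a mean of 5 RPKM or more, 6 with no trend, 92 with a robust trend, 12 with only the top transcript per gene kept and 75 with genes listed at 0 left out. Long noncoding genes called (0) became 1 at a mean of 5 RPKM or more (2900009J06Rik), and 2 with a robust trend and 2 with zeros left out (2810429I04Rik and 2900009J06Rik in both). The counts of all, long noncoding and small RNA genes called were 49, 0 and 2 without Chd1KD replicate 1; 122, 4 and 1 without Chd1KD replicate 2; 140, 3 and 2 without Control replicate 1; and 236, 6 and 2 without Control replicate 2. Those fits rest on 3 libraries and assume that the lone sample varies like the other group. Replicate numbers carried no stated pairing. Deviations of same-numbered libraries correlated at r = 0.22 across genes, and with the replicate number as a block 325 genes were called, 5 of them long noncoding. The fall of Chd1 was not called without a filter (log2 fold change -0.96, limma adjusted p = 0.2503), and was called in each other fit.

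The median log2 fold change of long noncoding genes (0.04) was 0.0467 with a pseudocount of 0.1, 0.0122 at a mean of 5 RPKM or more, 0.0610 after quantile normalization, 0.0466 after median scaling and 0.0473 without near copies. Leaving out a library gave 0.0273 to 0.0527. Genes whose groups did not overlap (96) were 33 of 76 at a mean of 5 RPKM or more and 50 of 102 without genes that overlap another. They were 148 to 157 with a library left out, since a group of 1 overlaps less easily. Snora81 had a log2 fold change of -0.30 in all libraries, and ranged from -1.36 without Chd1KD replicate 1 to 0.76 without Chd1KD replicate 2, called in both. The fits with zeros left out, the medians and counts without near copies and the overlap counts with a library left out were chosen after seeing the data. The causes of these shifts were not tested unless stated. Unknown depth limits how far the lowest genes can be read.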

Other observations

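Olfr856-ps1, a transcribed pseudogene of the olfactory receptor family on chromosome 9, and 4930470H14Rik, a long noncoding gene on chromosome 17, had nearly the same profile. Olfr856-ps1 was at 11.8 and 14.4 RPKM in Chd1KD, against 6.45 and 11.6 RPKM in Control. 4930470H14Rik was at 11.3 and 13.7 RPKM in Chd1KD, against 6.21 and 11.5 RPKM in Control. Among the 22 members whose squared deviations of log2(RPKM + 1) from their mean summed to over 0.3, these were the closest of 231 pairs, with a largest gap of 0.04 in any library. The pair was chosen after its values were seen, and neither gene passed the test (limma adjusted p = 0.275 and 0.317).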
